A study of Mus musculus with 28 samples.

Results

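Hybrid dendritic cells from the spleen of C57BL/6 mice that carried the H allele of the Irf8 +32 enhancer on both chromosomes (Irf8 +32H/H, written H/H) were compared with hybrid cells from mice that carried it on a single chromosome (Irf8 +32H/+, written H/+). The comparison rests on 4 of the 28 bulk RNA-seq libraries of the study, 2 of H/H and 2 of H/+ hybrid cells, all sequenced in the first of 2 experiments and chosen by their column names. The same experiment held 2 libraries each of type 1 (cDC1) and type 2 (cDC2) conventional dendritic cells from WT, H/+ and H/H mice. Every hybrid library came from a mouse with at least 1 H allele, so there is no WT hybrid group to compare with. The labels give the tissue, strain, genotype and cell type. Age, the sort gates, the base change that H stands for, and whether cell types with the same replicate number came from the same animal are not given in the sources used here. The labels call the replicates biological duplicates.

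Conventional dendritic cells take up antigen and present it to T cells. cDC1 depend on the transcription factors IRF8 and BATF3, carry XCR1 and, in the mouse spleen, CD8α, and are known for cross-presentation to CD8 T cells. cDC2 depend on IRF4 and ZEB2 and carry SIRPα and CD11b (Itgam). The enhancer 32 kb from the start of Irf8 is known as the element through which BATF3 keeps Irf8 expressed in cDC1. IRF8 joins DNA either with an ETS factor such as PU.1 or with a BATF-JUN pair.

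The hybrid label was checked against both sets of markers. Xcr1 stood at 358 and 401 CPM in the H/+ hybrid libraries and at 458 and 471 CPM in the H/H hybrid libraries, against 5.22 and 5.68 CPM in WT cDC2 (CPM, the count of a gene per M counts of its scaled library). Sirpa stood at 127 and 111 CPM in H/+ and at 103 and 91.5 CPM in H/H hybrid cells, against 1.18 and 0.884 CPM in WT cDC1. RNA of both lineages was therefore present in each hybrid library. In bulk RNA a mixture of cells and cells that hold both kinds of RNA cannot be told apart, nor can fewer cells of a type and less RNA per cell. The 4 libraries held 23.4 and 28.9 M (H/+) and 30.7 and 30.1 M counts (H/H), within the range of 23.4 to 38.2 M of the 16 libraries. In each group of this experiment replicate 1 lacked Xist RNA and replicate 2 had it, so the sexes were balanced between the hybrid groups.

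Between H/+ and H/H hybrid cells 21 genes passed the test, all of them lower in H/H, and most of them are genes of cDC2. Among the 21 were the cDC2 surface receptors Clec4a4, Clec4a1 and Cd101, the RNA sensor Tlr7, and Cd8a, a marker of cDC1. They are 0.131% of the 16036 genes tested (edgeR's quasi-likelihood test on all 16 libraries, Benjamini-Hochberg adjusted p below 0.05). No gene passed as higher. At an unadjusted p below 0.05, 429 genes (2.68%) were higher and 650 (4.05%) were lower. In each of the 21 genes both H/H libraries lay below both H/+ libraries, an order that 21% of all genes tested had, and the H/H library was lower in the pair with and in the pair without Xist RNA. By the contrast of WT cDC1 with WT cDC2, whose libraries the hybrid comparison does not use, 19 of the 21 were higher in cDC2, as were 23.4% of all genes tested, while 20.5% were higher in cDC1. Cd8a was higher in cDC1 and Mzb1 passed in neither direction. The number of genes that passed depended on the fit: it was 79 with DESeq2 (23 higher, 56 lower), 59 with a term for the sex of the animal (11 higher, 48 lower) and 3 without replicate 2 of the H/H hybrid group, and each of the first 2 sets held all 21.

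Promoter sequences are shown for 4 of the genes that fell, because 2 of them hold a PU.1-IRF composite element and the other 2, a pair of neighbouring cytochrome genes, a PU.1 site. Each line gives the 250 bases before the annotated start of a gene from RefSeq (GRCm38.p6), read 5′ to 3′ on the strand of the gene, and all 4 genes lie on the plus strand. Capitals mark GGAANNGAAA or its reverse complement in Cd8a (chr6:71373177-71373426) and Clec4a1 (chr6:122921598-122921847), and GAGGAAGT or its reverse complement in Cyp4f16 (chr17:32536307-32536556) and Cyp4f37 (chr17:32621069-32621318).
Cd8a: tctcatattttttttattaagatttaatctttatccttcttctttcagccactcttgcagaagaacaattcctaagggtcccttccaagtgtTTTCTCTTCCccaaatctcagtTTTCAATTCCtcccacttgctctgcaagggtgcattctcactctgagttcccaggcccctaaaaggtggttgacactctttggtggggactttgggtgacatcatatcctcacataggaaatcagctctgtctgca
Clec4a1: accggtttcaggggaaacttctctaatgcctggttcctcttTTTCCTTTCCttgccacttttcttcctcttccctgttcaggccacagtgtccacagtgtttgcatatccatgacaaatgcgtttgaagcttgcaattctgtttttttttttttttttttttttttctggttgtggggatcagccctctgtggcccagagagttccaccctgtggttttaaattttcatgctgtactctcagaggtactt
Cyp4f16: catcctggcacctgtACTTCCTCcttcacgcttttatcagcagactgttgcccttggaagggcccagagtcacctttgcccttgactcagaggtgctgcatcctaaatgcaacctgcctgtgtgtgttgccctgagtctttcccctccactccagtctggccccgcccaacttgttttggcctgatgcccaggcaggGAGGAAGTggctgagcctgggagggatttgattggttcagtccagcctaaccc
Cyp4f37: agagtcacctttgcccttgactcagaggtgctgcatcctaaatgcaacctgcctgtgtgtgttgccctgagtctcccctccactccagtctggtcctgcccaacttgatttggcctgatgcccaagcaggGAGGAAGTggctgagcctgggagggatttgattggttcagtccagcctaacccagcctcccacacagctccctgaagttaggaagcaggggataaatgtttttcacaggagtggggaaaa
The Cd8a window holds the composite letters at 2 places and the Clec4a1 window at 1 place, each on the minus strand. The Cyp4f windows share an unbroken run of 74 bases, which is not marked, holds TGACTCA and does not hold GAGGAAGT. They also share a shorter run that ends where the Cyp4f16 window ends. It holds the GAGGAAGT that both windows have on the plus strand. Of the 21 genes that fell, 15 have a window in the RefSeq table, and 10 motifs were searched in it on both strands. The composite GGAANNGAAA was found in 4 of the 15 (Cd8a, Clec4a1, Pcyt1b and Gm5086), and 2.68% of the 27025 genes with a window hold it. The PU.1 site GAGGAAGT was also found in 4 (Cyp4f37, Cyp4f16, Gm14548 and Gm15448), against 2.79% of all genes. The Cyp4f genes are neighbours and the Gm pair lies close together on chromosome 7, so these are not 4 independent occurrences. The interferon response element GAAANNGAAA was in 0 of the 15 (3.46% of all genes). The BATF-IRF composites TGANTCANNNNGAAA and GAAATGANTCA were in 0 of the 15 (0.115% and 0.118%). The half-site pair GAAANNGAA, which also lies within GAAANNGAAA, was in 1 (8.18%), the AP-1 site TGANTCA in the Cyp4f pair (7.82%) and the NFIL3 site TTANNTAA in 3 (6.3%). The E box CAGGTG was in 6 (19.4%), the same Gm pair among them, and the RBPJ site TGGGAA in 2 (24.1%). These are matches of letters and no binding was measured.

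Surface receptors found on cDC2 were among the genes that fell. Clec4a4, an inhibitory C-type lectin receptor of cDC2, stood at 34.1 and 40.6 CPM in H/+ and at 14.5 and 14.5 CPM in H/H hybrid cells. The groups lie well apart, with a fold change of 2.58 (log2 −1.37 ± 0.12 SE, edgeR adjusted p = 9.5e-05). In cDC2 the groups overlap, with 124 and 122 CPM in H/+ and 119.7 and 122 CPM in H/H, and in the 6 cDC1 libraries it was at 0.197 CPM or less. Clec4a4 in hybrid cells thus went from 30.4% to 12% of the cDC2 level of the same genotype. Its paralog and neighbour Clec4a1 stood at 125 and 140 CPM in H/+ and at 77.5 and 67.8 CPM in H/H hybrid cells. That is a 1.82-fold fall (log2 −0.86 ± 0.15, edgeR adjusted p = 0.04). Reads of such paralogs may be split in counting, so the division between Clec4a genes is uncertain. Cd101, an immunoglobulin superfamily receptor, stood at 14.3 and 15.3 CPM in H/+ and 5.92 and 3.94 CPM in H/H hybrid cells (log2 −1.59 ± 0.21, edgeR adjusted p = 0.0046). Cd7, another immunoglobulin superfamily receptor, stood at 73.9 and 69.3 CPM against 44.6 and 38 CPM (log2 −0.79 ± 0.14, edgeR adjusted p = 0.04). Hybrid cells carried 58.4% of the cDC2 level of Cd101 in H/+ and 26.7% in H/H, and 14.5% and 8.19% of that of Cd7. Within cDC2 Cd101 stood at 25.8 and 25 CPM in H/+ and at 21.7 and 15.3 CPM in H/H (log2 −0.46), values that lie apart without passing.

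Sensing and cytokine receptors followed. Tlr7, the endosomal receptor for single-stranded RNA, stood at 30.8 and 31.3 CPM in H/+ and at 15.6 and 13.6 CPM in H/H hybrid cells. The fall was 2.12-fold (log2 −1.09 ± 0.14, edgeR adjusted p = 0.0043). The gene lies on the X chromosome, and the fall was present in the pair of libraries with Xist RNA (log2 ratio −1.17) and in the pair without (−0.96). In cDC2 Tlr7 stood at 41.9 and 41.2 CPM in H/+ and 45.8 and 37.2 CPM in H/H, groups that overlap. Il12rb2, a subunit of the interleukin 12 receptor, stood at 17.9 and 17.7 CPM in H/+ and at 10.5 and 8.13 CPM in H/H hybrid cells (log2 −0.94 ± 0.14, edgeR adjusted p = 0.014). Of the 23 pattern recognition receptors tested, Tlr7 alone passed the test, and the median log2 fold change over them was −0.18 against −0.0049 over all genes tested.

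Cd8a went against its lineage. It encodes the CD8 α chain, which marks cDC1 in the spleen, yet it stood at 29.3 and 32.4 CPM in H/+ and at 14.4 and 15 CPM in H/H hybrid cells. The 2.1-fold fall (log2 −1.07 ± 0.15, edgeR adjusted p = 0.0051) matched in size the fall in cDC1, from 292 and 238 CPM to 117 and 134 CPM (log2 −1.07, edgeR adjusted p = 0.0029). The difference between these effects was 0.0069 ± 0.20 on the log2 scale (edgeR adjusted p = 1). In hybrid cells Cd8a thus stayed at 11.6% of the cDC1 level in H/+ and 11.7% in H/H. In cDC2 it stood at 21.1 and 16.1 CPM in H/+ and 24.6 and 23.5 CPM in H/H, so the H/H hybrid libraries were the lowest of the 16. The H/H effect in hybrid cells differed from that in cDC2 for Cd8a (log2 −1.44, edgeR adjusted p = 0.033) and for Clec4a4 (−1.34, edgeR adjusted p = 0.0073), the only 2 of 16036 genes (0.0125%) to pass that test. That number was 1 without replicate 1 of H/+ hybrid cells, 0 without any other single hybrid library and 0 when the 4 groups compared were fitted alone.

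**Figure D1:**
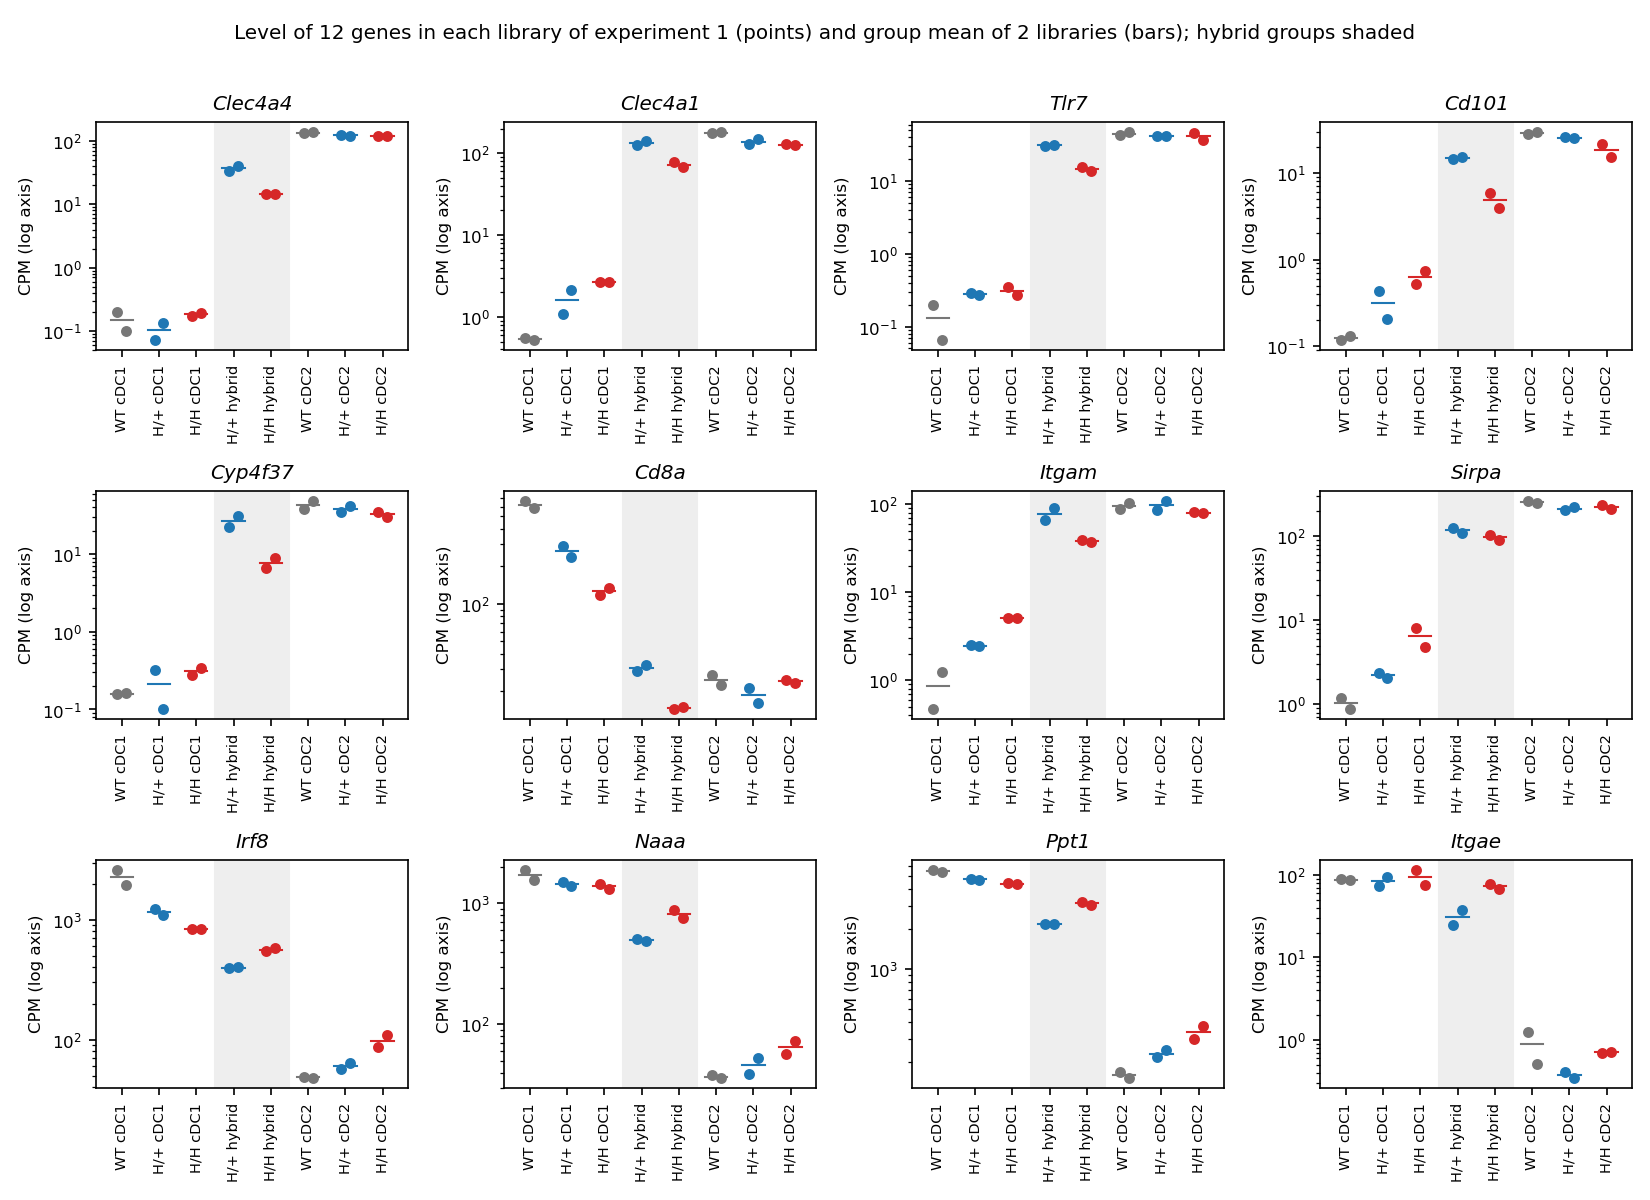
Level of 12 genes in each library of experiment 1 in CPM on a log axis, with points for libraries, bars for the mean of 2 libraries and the hybrid groups shaded. Clec4a4, Clec4a1, Tlr7, Cd101, Cyp4f37 and Cd8a passed the test in hybrid cells, with both H/H libraries below both H/+ libraries, while Itgam, Sirpa, Irf8, Naaa, Ppt1 and Itgae did not pass.

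Metabolic enzymes, transporters and other genes completed the set. Cyp4f37, a cytochrome P450 of the family that hydroxylates fatty acids and leukotrienes, stood at 22.1 and 31.2 CPM in H/+ and at 6.58 and 8.83 CPM in H/H hybrid cells. It showed the largest change of the genes named by rule, 3.46-fold (log2 −1.79 ± 0.21, edgeR adjusted p = 0.003). Its neighbour Cyp4f16 stood at 223 and 240.0 CPM in H/+ and at 156 and 149 CPM in H/H (log2 −0.60 ± 0.11, edgeR adjusted p = 0.047). These paralogs, whose promoter windows above share runs of letters, lie on chromosome 17, and counting may split their reads. Slc2a3, a glucose transporter, fell 1.83-fold from 33 and 31 CPM to 17.2 and 17.7 CPM. Abcb1a, a drug efflux pump, fell 1.77-fold from 33.5 and 36.1 CPM to 20.1 and 19.2 CPM. Ube2e2, a ubiquitin-conjugating enzyme, fell 2.06-fold from 36 and 38.8 CPM to 19.3 and 17 CPM. Bex6 fell 2.19-fold from 31.4 and 36.1 CPM to 17.8 and 13.1 CPM. Macf1, which links microtubules to actin, fell 1.55-fold from 56 and 53 CPM to 34 and 36.1 CPM. In each of these 5 genes the hybrid groups lie apart, and edgeR's adjusted p ran from 0.011 (Abcb1a) to 0.042 (Bex6). Within cDC2 Macf1 stood at 92.2 and 92.3 CPM in H/+ and at 70.6 and 70.7 CPM in H/H (log2 −0.38), also apart but without passing.

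The other 7 genes that passed were named after their values were seen. Gm5086, annotated as a long intergenic RNA on chromosome 13, stood at 15.1 and 14.7 CPM in H/+ and at 5.6 and 4.95 CPM in H/H hybrid cells (log2 −1.49 ± 0.14, edgeR adjusted p = 0.00028). Gm15925, Gm15448 and Gm14548 lie within a stretch of chromosome 7 from 3788883 to 3898120 (GRCm38). Gm15925 stood at 19.8 and 22.7 CPM against 10 and 7.78 CPM, Gm15448 at 12.6 and 16 CPM against 7.32 and 6.31 CPM, and Gm14548 at 12 and 14.2 CPM against 7.71 and 8.2 CPM. Gm15925 is annotated as an unprocessed pseudogene, so reads of related genes may be counted there. Arhgef18 stood at 4.01 and 5.75 CPM against 1.87 and 2.09 CPM. Pcyt1b, an enzyme of phosphatidylcholine synthesis, stood at 1.51 and 1.56 CPM against 0.282 and 0.244 CPM. Mzb1, a protein of the endoplasmic reticulum known from B lineage cells, stood at 0.935 and 1.17 CPM against 0.106 and 0.0698 CPM, so it rests on few reads. In cDC1 Mzb1 also passed as lower, at 0.433 and 0.914 CPM in H/+ and 0 in both H/H libraries (edgeR adjusted p = 0.0094). Clec4a4, Cyp4f37 and Gm5086 passed under all 9 alternative settings and the other 18 lost the call under 1 to 5 of them.

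The lineage genes as a whole had small differences of opposite sign. Of the genes at least 8-fold higher in WT cDC2 than in WT cDC1, with a mean of at least 10 CPM over the libraries, 181 were tested. Their median log2 fold change in hybrid cells was −0.41 (interquartile range −0.66 to −0.23), 8.84% were positive, and 15 passed the test, all lower. Both H/H libraries lay below both H/+ libraries in 115 of them (63.5%), against 22.2% of all 7456 genes with that mean level. Of the 89 genes at least 8-fold higher in WT cDC1, the median was 0.32 (interquartile range 0.17 to 0.45) and 91% were positive. None of the 89 passed as higher, while Cd8a passed as lower. Over all genes with that mean level the median was 0.0049 and 51.2% were positive, and over all genes tested 49% were.

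Expressed as a level, the median cDC2-high gene stood at 53.9% and 45.7% of its mean in WT cDC2 in the H/+ hybrid libraries and at 38.8% and 37.8% in the H/H hybrid libraries. The median cDC1-high gene stood at 38.4% and 39.7% of its mean in WT cDC1 in H/+ and at 50.4% and 50.4% in H/H hybrid cells. On neither measure did the hybrid groups overlap. The H/+ library without Xist RNA had the highest cDC2 level and the lowest cDC1 level of the 4. In cDC1 the order was the opposite, with the cDC1-high genes at 84% and 86.8% in H/+ and at 74.3% and 70.6% in H/H. Whether the shares of cDC1 and cDC2 in the hybrid sort differed between genotypes was not tested.

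**Figure D2:**
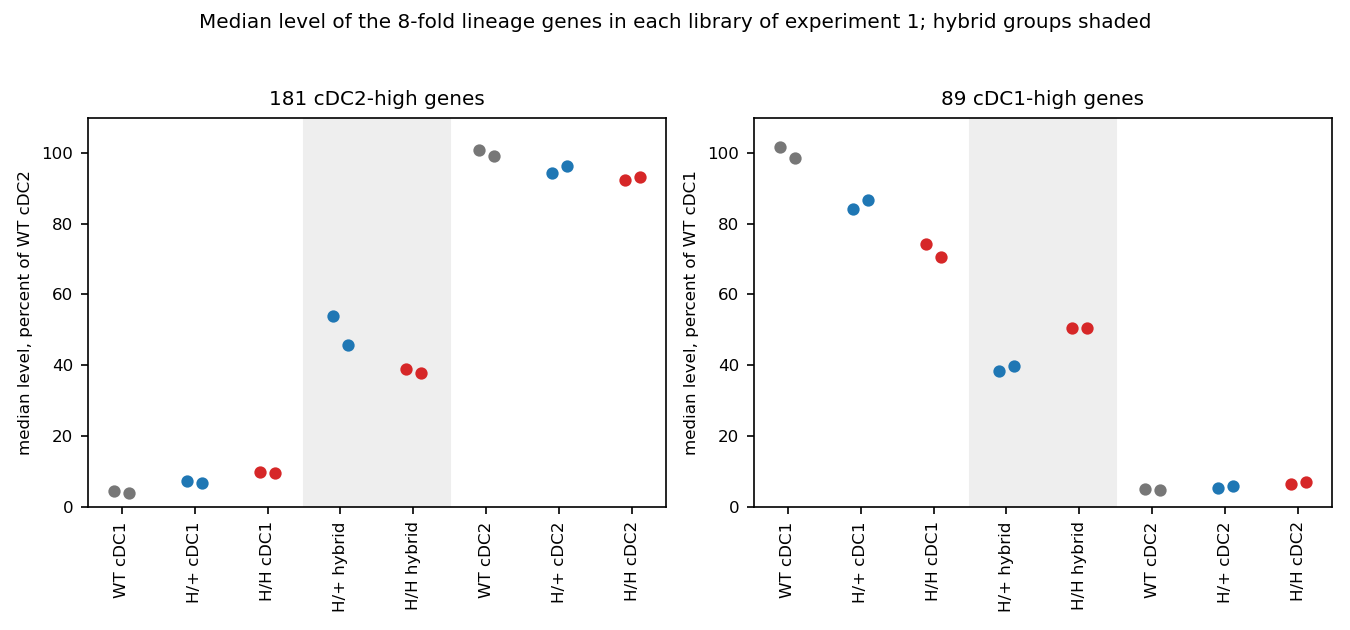
Median level of 181 cDC2-high genes (left, percent of WT cDC2) and 89 cDC1-high genes (right, percent of WT cDC1) in each library of experiment 1, 1 point a library, with the hybrid groups shaded. The H/H hybrid libraries sit at 38.8% and 37.8% on the left, below both H/+ hybrid libraries, and at 50.4% on the right, above them.

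The values were graded with the lineage bias of a gene. The 45 genes with a log2 fold change under −6 in WT cDC1 against WT cDC2 had a median of −0.64 in hybrid cells, 7 of them passed and both H/H libraries were below in 75.6%. Of all 7456 genes with a mean of at least 10 CPM, 18 passed as lower and both H/H libraries were below in 22.2%. The median was −0.41 between −6 and −4, −0.29 between −4 and −3, −0.22 between −3 and −2 and −0.13 between −2 and −1. On the cDC1 side it went from 0.14 between 1 and 2 to 0.24 between 3 and 4 and 0.38 over 6. No gene passed as higher in any of these classes.

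**Figure D3:**
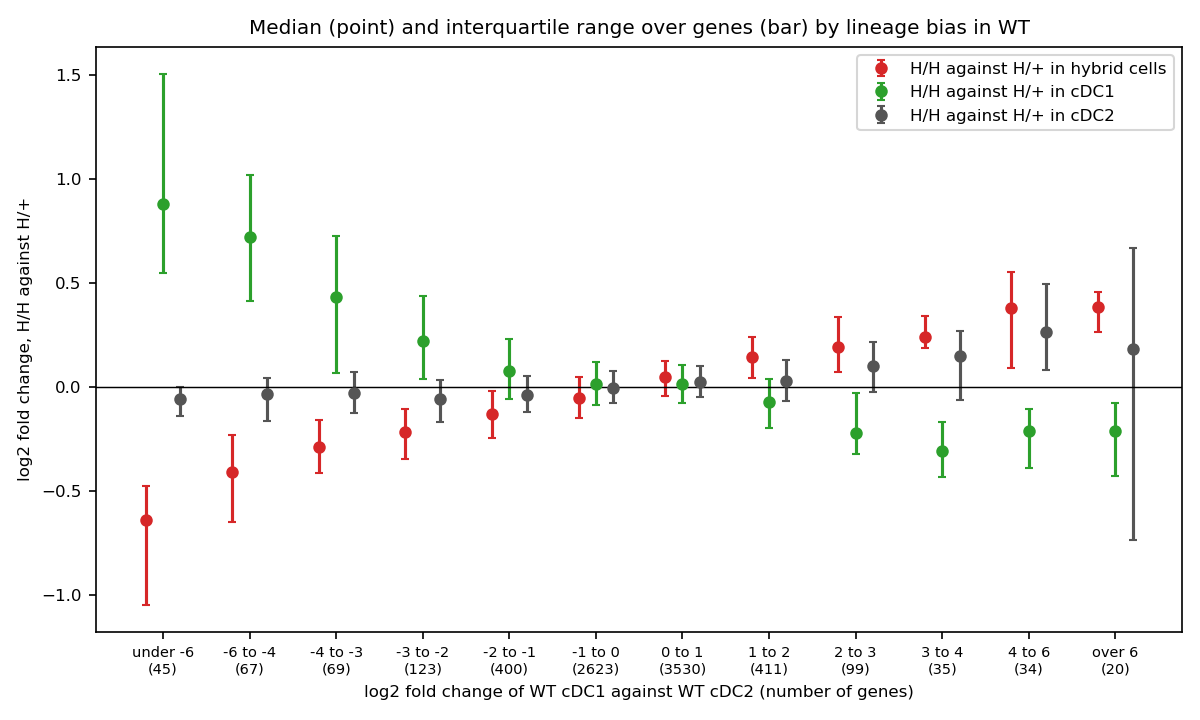
Median log2 fold change of H/H against H/+ (y axis) in hybrid cells, cDC1 and cDC2 for genes of at least 10 CPM, in classes of their log2 fold change between WT cDC1 and WT cDC2 (x axis, number of genes in brackets), with bars for the interquartile range over genes. Hybrid cells run from −0.64 in the most cDC2-biased class to 0.38 in the most cDC1-biased class, and cDC1 run from 0.88 to −0.21.

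Genes with higher values in H/H hybrid cells did not pass the test, and the 10 with the smallest p are given as values. All 10 are cDC1-high in WT. Naaa, a lysosomal amidase, stood at 506 and 493 CPM in H/+ and at 885 and 758 CPM in H/H hybrid cells (log2 0.72 ± 0.14, edgeR adjusted p = 0.083). Ppt1, a lysosomal thioesterase, stood at 2185 and 2173 CPM against 3190.0 and 3064 CPM (log2 0.52 ± 0.11, edgeR adjusted p = 0.091). Itgae, the integrin αE chain carried by cDC1, stood at 24.6 and 37.1 CPM against 77.3 and 68.2 CPM (log2 1.23 ± 0.26, edgeR adjusted p = 0.17). In all 3 the groups lie apart, and the distance to cDC1 was shorter in H/H: Naaa stood at 34.3% of the cDC1 level of its genotype in H/+ and at 59.3% in H/H, Ppt1 at 45.8% and 70.8%, and Itgae at 36.5% and 77.5%. Pde1b, a phosphodiesterase activated by calcium and calmodulin, had the smallest p (log2 0.72 ± 0.14, edgeR adjusted p = 0.064). Snx22 (a sorting nexin), Laptm4b (a lysosomal membrane protein), P3h2 (a prolyl hydroxylase), Ttc7b, Fbxw17 and Txndc15 had log2 fold changes from 0.55 (Fbxw17) to 1.03 (P3h2). With DESeq2 all 10 passed, and with a term for sex 8 of them did.

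The regulator that carries the allele showed values in the cDC1 direction in hybrid cells. Irf8 stood at 394 and 405 CPM in H/+ and at 544 and 579.7 CPM in H/H hybrid cells (log2 0.49 ± 0.13), groups that lie apart but did not pass (edgeR adjusted p = 0.32). In cDC1 Irf8 stood at 1221 and 1091 CPM in H/+ and at 837 and 831 CPM in H/H (log2 −0.47, edgeR adjusted p = 0.24), below 2580.0 and 1960.0 CPM in WT. The difference between the effects in hybrid cells and cDC1 did pass (log2 0.96 ± 0.18, edgeR adjusted p = 0.032). Hybrid cells thus had 34.5% of the Irf8 level of cDC1 in H/+ mice and 67.3% in H/H mice. In cDC2 Irf8 stood at 57.1 and 63.6 CPM in H/+ and at 86.2 and 110 CPM in H/H, values that lie apart without passing (edgeR adjusted p = 0.49).

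None of the other 36 transcription factors of dendritic cells passed in hybrid cells. Irf4 stood at 41.1 and 31.9 CPM in H/+ and at 22.3 and 22.5 CPM in H/H (log2 −0.71 ± 0.25, edgeR adjusted p = 0.64). Zeb2, a repressor needed by cDC2, stood at 68.6 and 43.2 CPM against 44.4 and 35.9 CPM, groups that overlap. Batf3, the partner of IRF8, stood at 101 and 102 CPM against 125 and 114 CPM, and Id2, an inhibitor of E proteins needed by cDC1, at 1236 and 1080.0 CPM against 1381 and 1493 CPM. Both are higher in H/H, with edgeR adjusted p of 0.65 and 0.53. Nfil3 stood at 9 and 10.4 CPM against 11.7 and 9.77 CPM and Zbtb46, a factor of conventional dendritic cells in general, at 23.6 and 22.4 CPM against 23.7 and 25.5 CPM. Tcf4 had a log2 fold change of −0.23 (edgeR adjusted p = 0.74).

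Markers divided by lineage. Of 28 cDC2 markers, Clec4a4 and Tlr7 fell, none rose, and the median log2 fold change was −0.50 with 26 negative. Both H/H libraries lay below both H/+ libraries in 19 of the 28, against 21% of all genes tested. Itgam stood at 66.4 and 89.7 CPM in H/+ and at 39.1 and 37.1 CPM in H/H (log2 −1.04 ± 0.19, edgeR adjusted p = 0.07), and Sirpa had a log2 fold change of −0.29 (edgeR adjusted p = 0.8). The 2 positive members were Clec12a and Ccr2, neither of which is cDC2-high in this contrast of WT cells. Of 28 cDC1 markers, Cd8a fell, none rose, and the median was 0.32 with 22 positive. Both H/H libraries lay above both H/+ libraries in 19 of them, against 19.8% of all genes tested. Of the 6 negative members, Cd8a, Cd207, Gcsam and Itm2a had both H/H libraries below both H/+ libraries. Cd207 stood at 9.8 and 12.5 CPM in H/+ and at 5.92 and 8.79 CPM in H/H (log2 −0.60, edgeR adjusted p = 0.66). In cDC1 Cd207 passed as lower (log2 −1.60, edgeR adjusted p = 0.0051). The values ran from −1.07 (Cd8a) to 1.23 (Itgae), and Xcr1 had 0.29 (edgeR adjusted p = 0.72).

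Gene groups beyond the markers held few members that passed. Of 36 lectins and paired receptors, Clec4a4 and Clec4a1 fell and none rose, with a median of −0.32 and 29 negative. Over all genes tested 0.131% passed, 49% had a positive log2 fold change and the median was −0.0049. In MHC class I presentation 0 of 20 genes passed, with a median of 0.16 and 17 positive. In MHC class II presentation 0 of the 18 tested passed (median 0.081). Of 42 interferon-stimulated genes none passed, and their median was 0.092 in hybrid cells against 0.70 in cDC1, where 3 passed as higher. Of 30 cell cycle genes none passed, 29 were negative with values from −0.44 to 0.0014 over the list, and both H/H libraries lay below both H/+ libraries in 21, against 21% of all genes tested. None passed among the cytokines and chemokines with their receptors, costimulation, uptake of dead cells, the Notch pathway, the phagocyte oxidase, immediate early genes, ribosomal protein genes or mitochondrially encoded genes. Of the 78 ribosomal protein genes 72 were positive, with a median of 0.098. Both H/H libraries lay above both H/+ libraries in 56 of them, against 19.8% of all genes tested. Of the 17 mitochondrially encoded genes 15 were positive (median 0.068).

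**Figure D4:**
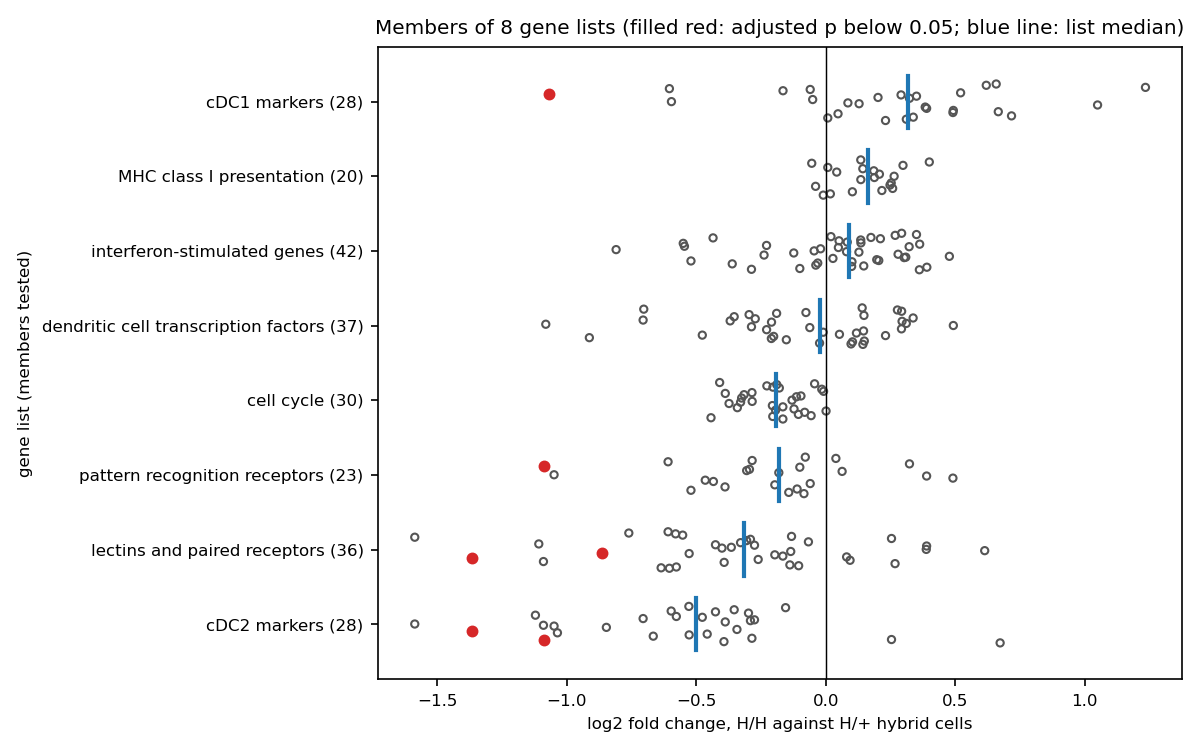
Log2 fold change of H/H against H/+ hybrid cells (x axis) for each tested member of 8 gene lists (y axis), filled red where the adjusted p was below 0.05, with the list median as a blue line. The medians run from 0.32 for cDC1 markers to −0.50 for cDC2 markers.

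None of the listed markers of other cells passed. Mzb1, known from B lineage cells and among the genes that fell, is not on the B cell list. The sums that follow are over the members of each list that were tested. The 11 tested plasmacytoid dendritic cell markers summed to levels that ranged from 128 to 146 CPM in the H/+ and from 139 to 141 CPM in the H/H hybrid libraries. The 8 tested B cell markers summed to 139 and 142 CPM in H/+ and to 161 and 204 CPM in H/H. Most of that sum is Ms4a1, at 93.4 and 89 CPM in H/+ and 123 and 162 CPM in H/H, a gene that was also higher in WT cDC1 than in WT cDC2 (log2 0.60). Other B cell markers had the opposite order, with Cd79b at 14.5 and 14.7 CPM in H/+ against 11.5 and 10.5 CPM in H/H and Bank1 at 23.8 and 29.1 CPM against 19.8 and 22.5 CPM. T cell markers summed to 15.2 to 17.9 CPM over the 4 libraries, NK cell markers to 89.7 to 107 CPM and neutrophil markers to 2.14 to 6 CPM. Monocyte and macrophage markers summed to 1848 and 1564 CPM in H/+ and to 1852 and 1525 CPM in H/H, and erythroid and platelet markers to 70.7 and 234 CPM against 143 and 47.3 CPM. The part of these cells in the results was not tested.

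The same genotype step had the opposite sign in cDC1 for the cDC2 genes. H/H against H/+ cDC1 gave 35 genes higher (0.218%) and 10 lower (0.0624%), together 0.281% of 16036, and the 181 cDC2-high genes had a median of 0.63, with 89.5% positive. In cDC2 none passed (521, or 3.25%, at an unadjusted p below 0.05, and 5 with DESeq2) and the median was −0.037. Of the 21 genes that fell in hybrid cells, 18 had a negative log2 fold change in cDC2, as had 7820 of the 16036. The difference between the effect in hybrid cells and that in cDC1 was tested for each gene. It passed for 64 genes (0.399%), of which 58 (0.362%) were lower and 6 (0.0374%) higher in hybrid cells relative to cDC1. All 58 are cDC2-high in WT, as are 23.4% of all genes tested. They are negative in hybrid cells and positive in cDC1, as are 3690 of the 16036. Choosing genes by this difference favours such signs. They hold 12 of the 21 genes that fell in hybrid cells, Cd101, Bex6, Ube2e2, Slc2a3, Clec4a1, Abcb1a, Cd7 and Cyp4f16 among them. Because both sets draw on the same hybrid libraries, this overlap is not separate support. The number was 155 with DESeq2, 132 with a term for sex and 24 to 57 with a library left out.

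Among the 58, Cybb, the catalytic subunit of the phagocyte NADPH oxidase, stood at 406 and 423 CPM in H/+ and at 333 and 341 CPM in H/H hybrid cells. In cDC1 it stood at 15.9 and 23.2 CPM in H/+ and at 62 and 69.8 CPM in H/H. The hybrid libraries thus carried 2120.0% of the cDC1 level in H/+ and 512% in H/H, and the difference of effects was −2.05 ± 0.20 on the log2 scale (edgeR adjusted p = 0.00041). Sirpa stood at 2.38 and 2.07 CPM in H/+ cDC1 and at 8.17 and 4.81 CPM in H/H cDC1 (difference −1.84, edgeR adjusted p = 0.0063). Itgam stood at 2.49 and 2.44 CPM against 5.13 and 5.08 CPM in cDC1 (difference −2.09, edgeR adjusted p = 0.0081). Ms4a4c (−1.87), Tgm2, a transglutaminase (−1.92), Cd72, an inhibitory receptor (−1.71), Fcer1g, the γ chain of Fc receptors (−1.14), and Emb, an adhesion protein (−1.11), passed in the same direction. So did Pram1, an adaptor protein (−5.75), whose H/+ cDC1 libraries held 0.0722 and 0 CPM, so that the size of its difference depends on the fit at low counts. The 6 higher genes were Pde1b (1.18, edgeR adjusted p = 0.01), Irf8 and, named after their values were seen, Galc, Slc11a1, Armc8 and AC139579.1.

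**Figure D5:**
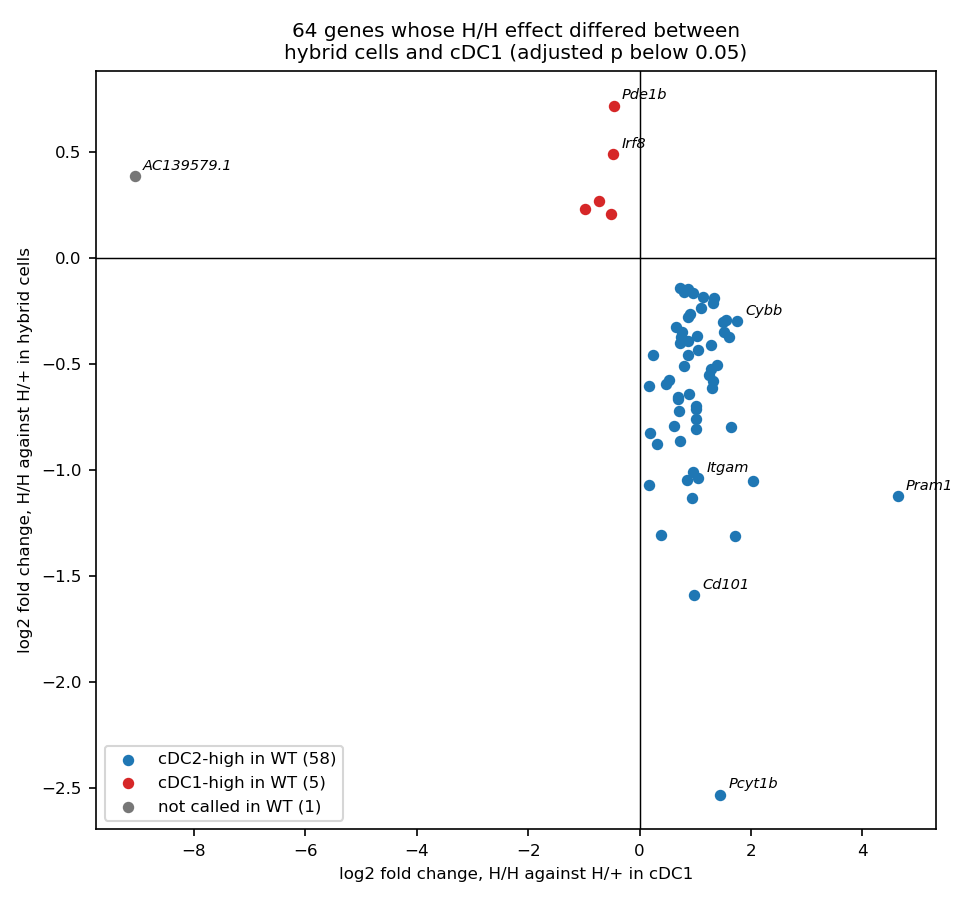
Log2 fold change of H/H against H/+ in hybrid cells (y axis) and in cDC1 (x axis) for the 64 genes whose effects differed between the cell types, 1 point a gene, coloured by the class of the gene in WT. The 58 cDC2-high genes lie at the lower right and the other 6 in the upper left, where AC139579.1, at 2.31 and 2.27 CPM in H/+ cDC1 and 0 in both H/H cDC1 libraries, sits far left.

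The second experiment of the study held 2 more libraries of H/H hybrid cells, scaled separately, so levels set beside those of the first experiment carry any difference between experiments and are given with no test. Neither held more than 0.057 Xist counts per M, so the sexes are not balanced between these libraries and the H/+ hybrid pair. The only H/+ hybrid libraries to set them beside are the 2 used above, so the genes chosen as low against those libraries get no count here. Clec4a4 was at 11.3 and 9.03 CPM there, Cd8a at 5.21 and 6.49 CPM and Tlr7 at 28.4 and 21.2 CPM. These lie below the H/+ hybrid libraries of the first experiment, while Macf1, at 60.3 and 67.1 CPM, lies above them. Of other cDC2 genes, Sirpa, at 178 and 188 CPM, lies above them and Itgam, at 63.5 and 52.5 CPM, below. Irf4, at 38.1 and 41.9 CPM, and Zeb2, at 38.6 and 46.9 CPM, overlap them. Irf8 was at 336 and 345 CPM, below the H/+ hybrid libraries, and Naaa at 502 and 509 CPM, within their range or just above it. Ppt1, at 2410 and 2470 CPM, and Itgae, at 52.1 and 50.6 CPM, lie above those libraries, against which they had also been chosen. Of the 89 cDC1-high genes, both libraries stood above both H/+ hybrid libraries in 32 (36%) and below them in 28 (31.5%), near the 29.9% and 33.6% of all genes tested. Of the 181 cDC2-high genes 24 (13.3%) stood above and 104 (57.5%) below. Relative to WT cDC1 of the second experiment, the 89 cDC1-high genes had a median level of 49.3% and 46.7% in these libraries. Relative to WT cDC1 of the first experiment it was 39.6% and 39.5%, so the placing of this class depends on the reference.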

How the data were processed

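RNA was measured in sorted splenic dendritic cells, as described above. Per the labels' protocols, 10 ng of total RNA with an integrity number above 9 entered a SMARTer Ultra Low kit. Per the submitters' processing notes the tools were bcl2fastq, DRAGEN and edgeR, and the genome build is not given in the sources used here. The authors deposited expected counts, which are estimated reads per gene, in 1 table per experiment, of which 10.8% in experiment 1 were not exactly whole as deposited (no tolerance). They were rounded. Of 55774 lines 287 repeated a gene ID with the same counts and were dropped. Coordinates and gene types come from GENCODE M21 on GRCm38 by gene ID (99.4% matched).

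All 16 libraries of experiment 1 entered a single fit (edgeR 4.0.16, R 4.3.3), with 1 coefficient per group, 8 residual degrees of freedom, TMM factors from 0.914 to 1.11 and filterByExpr (minimum count 10), on 16036 genes. Robust quasi-likelihood tests used a Benjamini-Hochberg adjusted p below 0.05, over all genes of a contrast. CPM use library sizes multiplied by the TMM factor, ± gives the standard error, and n is 2 libraries a group throughout. No replicates had been pooled, and no replicate pair agreed within sampling noise. The labels say that replicates are biological, but not which animals they came from. DESeq2 1.42.0, other factors, no filter, a replicate or sex term, the compared groups alone and leaving out each library were tried.

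The comparison and the gene lists were chosen with earlier results of these data known. The named genes are Irf8, Irf4, Batf3, Zeb2, Id2, Nfil3, Tcf4, Zbtb46, Xcr1, Cd8a, Sirpa, Itgam, Clec4a4 and Tlr7, then up to 15 rises and 15 falls of largest size past the threshold with 10 CPM or more in either group and all libraries of 1 group above the other. Predicted genes, pseudogenes and receptor segments were left out. Where fewer than 10 passed in a direction, genes of the smallest p filled the number up to 10. For the differences between cell types up to 8 genes of smallest p were added, and up to 5 per list. Promoter windows come from RefSeq (GRCm38.p6).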

Additional observations from a re-analysis of the deposited data

Results flagged for a closer look

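The results listed here were marked because the effect of the second H allele differed between cell types in a test of the difference itself (edgeR, adjusted p below 0.05). They are given as differences of log2 fold changes. Between hybrid cells and cDC1 the difference was 0.96 for Irf8, −1.84 for Sirpa, −2.09 for Itgam, −1.90 for Ube2e2, −2.05 for Cybb and −1.87 for Ms4a4c. It was −1.14 for Fcer1g, −1.11 for Emb, −1.71 for Cd72, −5.75 for Pram1 and −1.92 for Tgm2. Between hybrid cells and cDC2 it was −1.44 for Cd8a and −1.34 for Clec4a4. Groups of 2 libraries are too small for a test of single outlying libraries.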

How the results depend on the processing

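With RLE factors in place of TMM the 6 counts of genes that passed stayed within 1.5 times of the reported values, and 20 genes passed in hybrid cells. Without a filter on low counts 153 genes passed in hybrid cells (46 higher, 107 lower), 251 in cDC1, 27 in cDC2, 219 for the difference from cDC1 and 36 for the difference from cDC2. With DESeq2 the counts were 79, 145, 5, 155 and 13. With the groups compared alone, 43 passed in hybrid cells, 10 in cDC1 and 0 for the difference from cDC2. Replicate numbers and the sexes coincide in this experiment, so the replicate block is the same model as the sex term: 59 passed in hybrid cells, 136 in cDC1 and 132 for the difference from cDC1. The deviations of same-numbered libraries correlated between −0.034 and 0.30 over 28 pairs of groups (0.055 for the hybrid groups). Between the cell types of H/+ mice the values were 0.16, 0.27 and 0.30, and between those of H/H mice 0.031, 0.10 and 0.13. Not every pair exceeded 0.1 and the labels name no shared animals, so the numbers were not taken to pair the samples. Leaving out 1 library gave 3 to 17 genes in hybrid cells, 15 to 148 in cDC1, 0 to 2 in cDC2, 24 to 57 for the difference from cDC1 and 0 to 2 for the difference from cDC2. In hybrid cells 11 passed without replicate 1 and 3 without replicate 2 of H/H, and 17 and 7 without replicates 1 and 2 of H/+. The cDC1 count was 15 and 17 without replicates 1 and 2 of H/H, and 29 and 148 without those of H/+. The WT contrast stayed between 5465 and 7528 genes. The causes of these changes were not tested. Some log2 values changed sign among the fits that left out 1 library, and not all of them were near 0 in the main fit. The difference from cDC1 ran from −0.15 to 0.14 for Cd8a (−0.0043 with the replicate block). For Nfil3 it ran from −0.13 to 0.79 (0.41 in the main fit). The difference from cDC2 ran from −0.32 to 0.33 for Nfil3, from −0.063 to 0.15 for Zbtb46 and from −0.32 to 0.17 for Xcr1. In cDC1 the fold change ran from −0.048 to 0.13 for Batf3 and from −0.0501 to 0.32 for Tlr7. For Nfil3 in cDC1 it ran from −0.65 to 0.27 (−0.26 in the main fit). None of these had passed.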
